A study of Mus musculus with 5 samples.

Results

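This account concerns 33 genes of cholesterol synthesis, its control and cholesterol transport in mouse mammary luminal cells, the keratin 8 and keratin 18 positive epithelial cells that face the lumen of ducts and alveoli. The members are 18 enzymes of the pathway from acetyl-CoA to cholesterol, 4 genes of SREBP2 control, 5 genes of LXR control and its targets, and 6 genes of uptake, trafficking and storage. The rule takes them by gene name and uses no measured value, and all 33 were found among the 24319 named genes of the deposited table. All 33 also had a mean of at least 1 FPKM (fragments scaled to transcript length and to the mapped fragments of the library), which was the minimum for a gene to be tested, met by 11481 genes. Bulk RNA-seq was made from 5 libraries of viable, lineage-depleted cells sorted by flow cytometry as CD24 high and CD29 low. By their labels, Lum1, Lum2 and Lum3 are wild type and Lum4 and Lum5 are *Brca1* knockout, all of mixed strain. The knockout mice of the study carry MMTV-Cre and *Brca1* fl/fl, so that deletion is driven by a mammary tumor virus promoter, is limited to cells where that promoter has been active and need not reach every cell. The study took glands from young adult females, virgin or in mid pregnancy, and the stage behind each library is not given. The paper describes the luminal libraries as BRCA1 deficient without the split given by the labels. The labels do not say that the libraries came from separate mice, so p-values measure only the spread between these libraries.

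Cholesterol is built from acetyl-CoA through mevalonate, isoprenoids, squalene and lanosterol. When sterol in the endoplasmic reticulum is low, SCAP carries the transcription factor SREBP2 to the Golgi for cleavage, and the released factor activates most genes of the pathway. When sterol is high, the INSIG proteins hold SCAP in the endoplasmic reticulum, while oxysterols activate the LXR receptors, which raise export transporters. Mammary epithelium makes and takes up cholesterol for its membranes and, in lactation, for the membrane of the milk fat globule.

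The promoters of 4 enzymes are shown because their genes stood on opposite sides of the spread described further on. They were not the 4 most extreme. *Fdft1* and *Sqle*, which had no matched RefSeq window, were further up in Lum3 than *Hmgcs1*, and *Dhcr7* was further down than *Mvd*. *Hmgcs1* and *Msmo1* were high in Lum3, *Hsd17b7* and *Mvd* were low in it, and the choice was made after those values had been seen. Each sequence is the 250 bases before the RefSeq transcription start on GRCm38.p6, written 5′ to 3′ on the strand of the gene. Capitals mark 3 searched motifs on either strand: the sterol regulatory element TCACNCCAC, the CCAAT box (CCAAT, or ATTGG on the other strand) and the GC box (GGGCGG or CCGCCC). The windows are chr13:119690101-119690350, plus strand for *Hmgcs1*, chr8:64733579-64733828, minus strand for *Msmo1*, chr1:169969206-169969455, minus strand for *Hsd17b7* and chr8:122443423-122443672, minus strand for *Mvd*. The GENCODE M21 gene start of *Msmo1* and of *Hsd17b7* lies inside its window.
Hmgcs1: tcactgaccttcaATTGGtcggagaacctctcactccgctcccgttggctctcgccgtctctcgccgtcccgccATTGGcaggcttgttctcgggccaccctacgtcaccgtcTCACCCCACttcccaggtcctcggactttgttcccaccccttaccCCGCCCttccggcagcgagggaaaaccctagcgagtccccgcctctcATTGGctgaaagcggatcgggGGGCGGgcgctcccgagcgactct
Msmo1: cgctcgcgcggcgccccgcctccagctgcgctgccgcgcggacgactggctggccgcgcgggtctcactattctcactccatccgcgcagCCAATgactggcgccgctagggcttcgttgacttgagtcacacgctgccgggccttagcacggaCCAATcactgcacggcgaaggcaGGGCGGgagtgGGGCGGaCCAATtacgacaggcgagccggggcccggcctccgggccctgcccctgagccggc
Hsd17b7: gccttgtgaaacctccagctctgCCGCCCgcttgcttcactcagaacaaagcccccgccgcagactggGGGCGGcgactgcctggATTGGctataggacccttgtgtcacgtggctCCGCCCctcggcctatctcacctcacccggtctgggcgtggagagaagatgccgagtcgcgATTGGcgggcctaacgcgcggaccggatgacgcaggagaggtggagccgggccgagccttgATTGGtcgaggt
Mvd: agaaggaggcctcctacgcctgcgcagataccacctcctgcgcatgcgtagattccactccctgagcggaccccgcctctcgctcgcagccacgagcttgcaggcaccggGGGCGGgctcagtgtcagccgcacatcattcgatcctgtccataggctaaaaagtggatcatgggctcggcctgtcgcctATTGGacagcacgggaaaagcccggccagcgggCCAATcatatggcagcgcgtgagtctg

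The *Hmgcs1* window held a match to the sterol regulatory element, 137 bases before the start, with a CCAAT box on either side of it and 3 CCAAT boxes in all. The *Msmo1* window held 3 CCAAT boxes and 2 GC boxes, the *Hsd17b7* window 3 of each, and the *Mvd* window 2 CCAAT boxes and 1 GC box. RefSeq windows of the table used here, which run from 250 bases before to 50 bases after a start, were matched for 26 of the 33 members (33 windows). A CCAAT box was in 20 of these 33 windows (60.6%) and in 37.4% of all 32851 windows. A GC box was in 26 (78.8%) and in 35.7% of all. The set of all windows was taken without regard to expression, whereas every member was expressed, and no share over expressed genes was computed. Among the 15 enzymes matched, 14 had a window with a CCAAT box and 14 had one with a GC box. The sterol regulatory element was in 1 of the 33 windows and in 1.24% of all. The motif matches did not separate the high from the low genes of the sequences shown, since CCAAT and GC boxes were in all 4, and a match is a string of letters, not a measured binding site.

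Of the 33 members, 30 were at or above 1 FPKM in every library, and the exceptions were *Abcg1*, *Lrp1* and *Soat1*. The libraries carried luminal genes at high levels but were unequal. The luminal keratin and adhesion genes summed to between 6150 and 10107 FPKM per library, and adipocyte genes to at most 0.0903 FPKM with *Lep* at 0 in every library. Depth is not given with the values, and by the spacing of low FPKM it differed by about 4.91 times between the shallowest library, Lum1, and the deepest, Lum3. Lum3 stood apart. The mature luminal list (6 genes, among them the hormone receptor genes *Esr1*, *Pgr* and *Prlr*) had a median of 5.48 on the log2(FPKM + 1) scale in Lum3 and of 1.17 to 1.80 elsewhere, and the proliferation list (8 genes) 0.47 against 3.05 to 4.13. The basal list (7 genes) summed to 13.5 FPKM in Lum3 and to 44.1 to 139 FPKM elsewhere, and the luminal progenitor list (5 genes) had medians between 6.33 and 8.02, with 6.68 in Lum3. *Brca1* was 0.234 FPKM in Lum3, which is labelled wild type, and 1.20 to 1.34 in the other 4 libraries, so its level did not separate the labels. A deletion of part of the gene need not lower this value.

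The enzymes of cholesterol synthesis were present at moderate levels, and as a group they were nearly level across the 5 libraries. Their 18 values had a median of 3.28, 3.29, 3.42, 3.19 and 3.32 (log2(FPKM + 1)) in Lum1 to Lum5, a mean of 3.30 ± 0.08 (SD, n = 5). Their summed FPKM were 223, 212, 204, 200.04 and 219, or 212 ± 9.59. Lum3 had the highest median and the second lowest sum, and Lum4 the lowest of both. On the same scale the median of all genes tested was between 3.11 and 3.38.

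**Figure D1:**
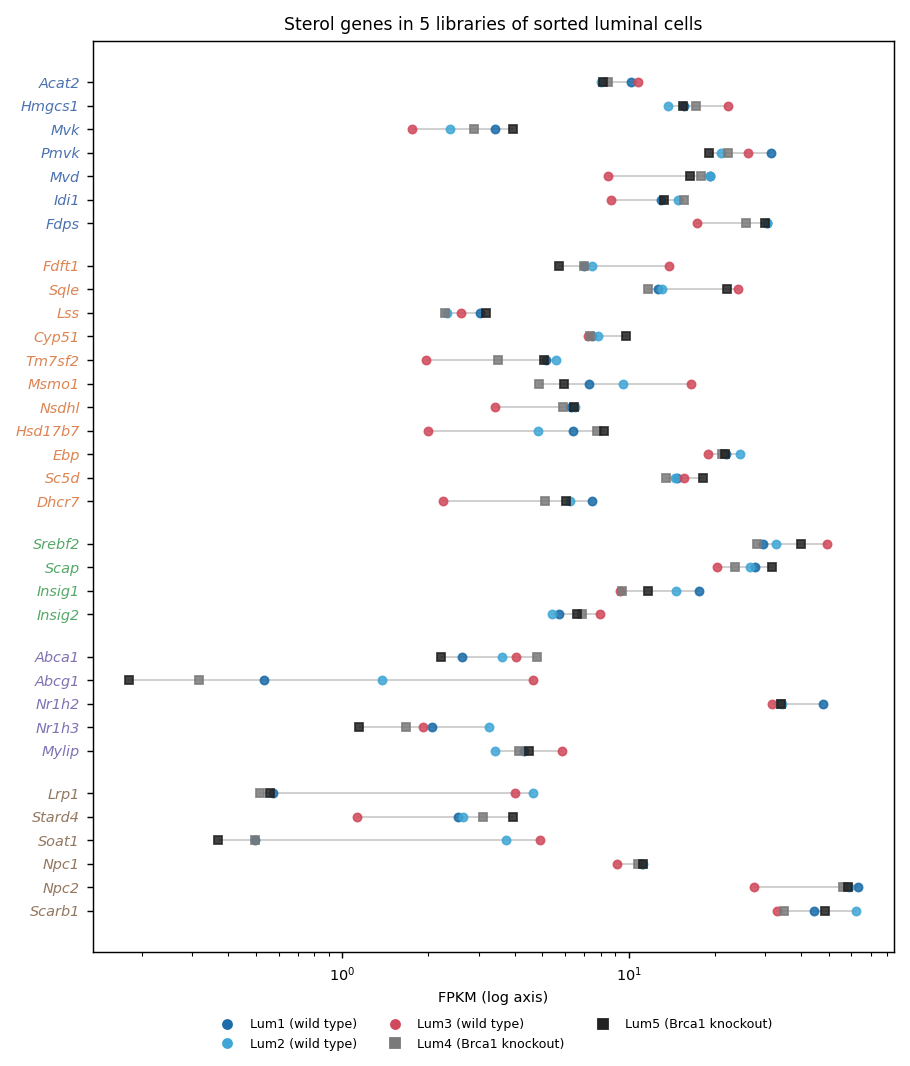
FPKM of each of the 33 genes (log axis) in the 5 libraries, with circles for libraries labelled wild type and squares for *Brca1* knockout, and gene names coloured by role (mevalonate part, squalene and sterol part, SREBP2 control, LXR, transport). Lum3 (red) is the highest library for 10 genes and the lowest for 17, beside 18.5% and 51.9% of all genes tested. *Abcg1*, *Lrp1* and *Soat1* spread the most, from under 1 FPKM to between 4.65 and 4.90 FPKM.

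In the mevalonate part, 3 genes were among the best expressed of the pathway. *Fdps*, farnesyl diphosphate synthase, was 30.5, 30.4, 17.4, 25.7 and 30.1 FPKM in Lum1 to Lum5. *Pmvk*, phosphomevalonate kinase, was 31.4, 20.9, 26.1, 22.2 and 19.1 FPKM. *Hmgcs1*, which makes HMG-CoA, was 15.6, 13.7, 22.3, 17.2 and 15.4 FPKM. Lum3 was thus lowest for *Fdps*, highest for *Hmgcs1* and second to Lum1 for *Pmvk*. *Mvd*, the decarboxylase that makes isopentenyl diphosphate, was 19.3, 19.2, 8.48, 17.9 and 16.4 FPKM. *Idi1*, the isomerase of that product, was 12.99, 14.9, 8.69, 15.6 and 13.3 FPKM. Both were even in 4 libraries and lowest in Lum3. *Acat2*, the cytosolic thiolase at the head of the pathway, ranged from 8.04 to 10.8 FPKM, and *Mvk*, mevalonate kinase, from 1.75 to 3.96 FPKM, the lowest of the 7.

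In the squalene and sterol part, *Ebp*, the sterol isomerase, had the highest mean and the least spread, with 21.9, 24.4, 18.9, 21.1 and 21.7 FPKM. *Sqle*, squalene epoxidase and a rate-limiting step, was 12.7, 13.1, 24.2, 11.7 and 22.1 FPKM. Lum3 and Lum5 were high for *Sqle* and the other 3 libraries low, so the groups overlapped. *Fdft1*, squalene synthase, was 6.99, 7.48, 13.9, 7.01 and 5.72 FPKM, and *Msmo1*, a sterol C4 methyl oxidase, was 7.29, 9.59, 16.5, 4.85 and 5.94 FPKM. Lum3 was highest for both genes. *Nsdhl*, which acts with *Msmo1* in removing the C4 methyl groups, went the other way, at 6.32, 6.52, 3.42, 5.89 and 6.46 FPKM.

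*Hsd17b7*, the ketosteroid reductase that completes that demethylation, was 6.38, 4.84, 1.99, 7.78 and 8.18 FPKM. *Dhcr7*, which makes cholesterol from 7-dehydrocholesterol, was 7.45, 6.25, 2.25, 5.11 and 6.07 FPKM. *Tm7sf2*, a sterol reductase, was 5.16, 5.59, 1.96, 3.49 and 5.06 FPKM. Lum3 was lowest for all 3 of these. *Cyp51*, lanosterol demethylase, was between 7.23 and 7.79 FPKM in 4 libraries and 9.81 FPKM in Lum5. *Sc5d*, sterol desaturase, was between 13.5 and 18.2 FPKM. *Lss*, lanosterol synthase, was between 2.28 and 3.19 FPKM and the least expressed of this part by its mean. No library was an outlier in the last pair.

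Without Lum3, the enzymes varied little. Their median coefficient of variation over the other 4 libraries was 13.9%, and that of all genes tested was 16.4%. The most even were *Nsdhl* (4.49%), *Ebp* (6.65%), *Mvd* (7.36%) and *Fdps* (7.97%), and the least even were *Sqle* (32.4%) and *Msmo1* (29.5%). With Lum3 the enzymes had a median of 22.0%, beside 23.3% for all genes.

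*Srebf2*, which encodes SREBP2, was 29.6, 32.6, 49.4, 28.0 and 40.1 FPKM, and *Scap*, its escort, was 27.6, 26.5, 20.4, 23.5 and 31.6 FPKM. Lum3 was highest for *Srebf2* and lowest for *Scap*. *Insig1*, itself an SREBP target, was 17.6, 14.6, 9.34, 9.47 and 11.7 FPKM, and *Insig2*, which is not driven by SREBP in the same way, was 5.70, 5.40, 7.93, 6.90 and 6.59 FPKM. *Insig1* exceeded *Insig2* in 5 of 5 libraries, but the ratio ran from 1.18 in Lum3 and 1.37 in Lum4 to 2.71 in Lum2 and 3.08 in Lum1. The mean difference was 0.82 ± 0.55 on the log2(FPKM + 1) scale (SD, n = 5). An exact two-sided permutation test over the 5 differences gave p = 0.063, which is the smallest p that 5 libraries allow, and p = 0.0833 after adjustment over 4 such comparisons.

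Among the LXR genes, *Nr1h2* (LXR beta, the broadly expressed form) was 47.6, 34.4, 31.6, 34.0 and 34.2 FPKM. *Nr1h3* (LXR alpha, prominent in liver and macrophages) was 2.06, 3.27, 1.92, 1.67 and 1.14 FPKM. *Nr1h2* was the higher in 5 of 5 libraries, by between 10.5 and 29.8 times, with a mean difference of 3.65 ± 0.40 (log2(FPKM + 1); exact two-sided permutation p = 0.063, adjusted p = 0.0833). *Mylip*, an LXR target that sends lipoprotein receptors to degradation, was 4.31, 3.43, 5.85, 4.15 and 4.503 FPKM. The exporter *Abca1* was 2.61, 3.61, 4.05, 4.78 and 2.21 FPKM. The exporter *Abcg1* was 0.534, 1.38, 4.66, 0.317 and 0.180 FPKM. Both *Abca1* and *Abcg1* are LXR targets, yet *Abca1* was highest in Lum4, where *Abcg1* was 0.317 FPKM. *Abcg1* was below *Abca1* in 4 of 5 libraries, and in Lum3 the ratio of *Abcg1* to *Abca1* was 1.15. The mean difference was -1.12 ± 0.84 (exact two-sided permutation p = 0.125, adjusted p = 0.125). With 5 libraries this test cannot give a p under 0.063. None of the 4 within-library comparisons could therefore reach the adjusted p threshold of 0.05, whatever their values, and the test cannot separate them.

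Of the transport genes, *Npc2* and *Scarb1* were the best expressed. *Npc2*, the soluble protein that hands cholesterol from lipoproteins to NPC1 in the lysosome, was 63.2, 59.0, 27.3, 56.2 and 58.4 FPKM. Its membrane partner *Npc1* was 11.2, 11.3, 9.12, 10.8 and 11.2 FPKM, and without Lum3 it was the most even member (coefficient of variation 2.11%). Both were lowest in Lum3, and *Npc2* exceeded *Npc1* by 2.995 times there and by 5.19 to 5.66 times in the other 4 libraries. The mean difference was 2.15 ± 0.37 on the log2(FPKM + 1) scale (exact two-sided permutation p = 0.063, adjusted p = 0.0833).

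*Scarb1*, the HDL receptor, was 44.4, 62.0, 33.1, 34.9 and 48.5 FPKM, with Lum2 highest and both labels overlapping. *Stard4*, which carries sterol through the cytosol, was 2.53, 2.64, 1.13, 3.10 and 3.96 FPKM. *Lrp1*, a large endocytic receptor, was 0.572, 4.65, 4.01, 0.516 and 0.558 FPKM. *Soat1*, which esterifies cholesterol for storage, was 0.498, 3.72, 4.90, 0.496 and 0.368 FPKM. *Lrp1* and *Soat1* shared a pattern of high values in Lum2 and Lum3 and values under 1 FPKM in Lum1, Lum4 and Lum5.

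*Lrp1*, *Soat1* and *Abcg1* were at least 2-fold higher in both Lum2 and Lum3 than in any of the other 3 libraries. They lie apart in the genome (GENCODE M21, GRCm38), at chr10:127538161-127621148 for *Lrp1*, chr1:156424525-156474331 for *Soat1* and chr17:31057675-31117988 for *Abcg1*. This criterion was set after their values had been seen, and 3 of 33 members met it beside 2.22% of all genes tested. The lower of Lum2 and Lum3 exceeded the highest of the rest by 7.01 times for *Lrp1*, 7.48 times for *Soat1* and 2.58 times for *Abcg1*. In Lum1, Lum4 and Lum5 they averaged 0.549 ± 0.029, 0.454 ± 0.074 and 0.344 ± 0.18 FPKM (SD, n = 3). By the estimated depth, *Abcg1* rested on about 11.7 to 22.4 fragments per library there, so that its order among these 3 was not resolved. Lum2 and Lum3 were also the libraries with more RNA of fibroblast, immune and endothelial genes, although the preparation depleted blood and endothelial cells and the gate took CD24 high cells. The fibroblast list (6 genes) summed to 109 and 86.0 FPKM in Lum2 and Lum3 and to 2.997, 3.86 and 12.6 in Lum1, Lum4 and Lum5. The macrophage and other immune list (7 genes) summed to 267 and 51.7 FPKM and to 7.48, 4.88 and 8.24, and the endothelial list (4 genes) to 5.23 and 5.58 FPKM and to at most 0.455. *Lyz2*, of the macrophage and other immune list, was 213 FPKM in Lum2, 28.7 in Lum3 and at most 4.53 elsewhere. The fibroblast gene *Dcn* was 10.3, 51.3 and at most 1.22. In bulk samples, fewer cells of a type and less RNA per cell cannot be told apart. The part of these cells in the 3 sterol genes was not tested.

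**Figure D2:**
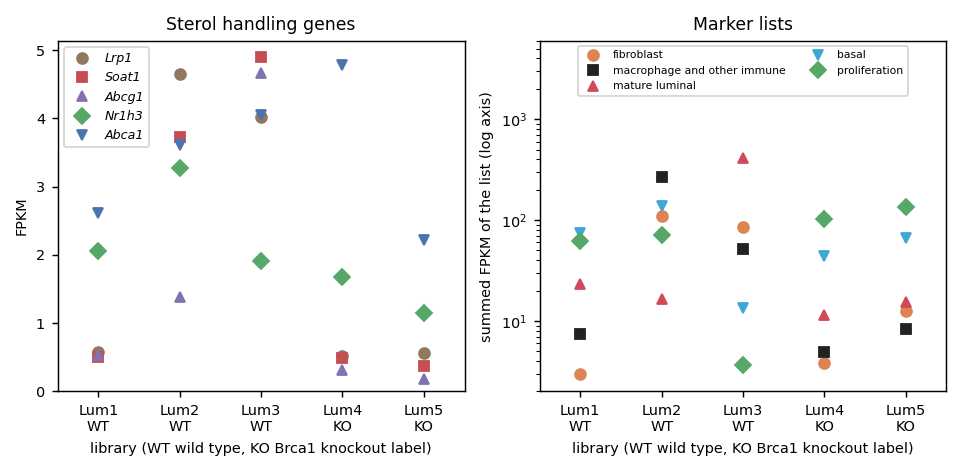
Left, FPKM of 5 sterol handling genes in each library; right, summed FPKM of 5 marker lists on a log axis. *Lrp1* and *Soat1* reach 3.72 to 4.90 FPKM in Lum2 and Lum3 and stay under 1 FPKM in the other 3 libraries, and the fibroblast and immune sums are highest in Lum2 and Lum3 as well.

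Lum3 split the pathway. It was the highest of the 5 libraries for 10 members, beside 18.5% of all genes tested, and the lowest for 17 members (51.5%), beside 51.9% of all genes. Measured against the mean of the other 4 libraries, 5 members were at least 2-fold up in Lum3 (7.8% of all genes) and 6 at least 2-fold down (15.9% of all genes). The shares for low values were near the background, and those for high values were above it. The 5 members up included *Lrp1*, *Soat1* and *Abcg1*, which were high in Lum2 as well. Of the 18 enzymes, 2 were at least 2-fold up and 4 at least 2-fold down, beside the same shares of all genes. With median-of-ratios scaling, Lum3 was highest for 14 members and lowest for 10, beside 31.0% and 34.8% of all genes. Only 1 library carries this difference, so it is a description with no test.

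The members up by at least 2-fold were *Fdft1* (2.04 times the mean of the others), *Msmo1* (2.39), *Lrp1* (2.55, and higher still in Lum2), *Soat1* (3.85) and *Abcg1* (7.73). *Sqle* (1.62), *Srebf2* (1.52), *Hmgcs1* (1.44), *Mylip* (1.43), *Insig2* (1.29) and *Acat2* (1.24) were highest in Lum3 without reaching 2-fold. The members down by at least 2-fold were *Hsd17b7* (3.41 times lower than the mean of the others), *Dhcr7* (2.76), *Stard4* (2.72), *Tm7sf2* (2.46), *Npc2* (2.17) and *Mvd* (2.15). Consecutive steps of the pathway therefore stood on opposite sides, such as *Msmo1* up with *Nsdhl* and *Hsd17b7* down. The SREBP2 gene itself was up, as were 5 of the 18 enzymes, while 10 enzymes, its escort *Scap* and its target *Insig1* were lowest. *Scap* and *Insig1* differed from the mean of the other 4 libraries by -0.40 and -0.44 (log2(FPKM + 1)). The median of this difference over all genes tested was -0.27, and *Insig1* was 9.34 FPKM in Lum3 and 9.47 FPKM in Lum4.

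Over the 18 enzymes, the median departure of Lum3 from the other 4 libraries was -0.18 on the log2(FPKM + 1) scale, although their median level was highest in Lum3. The same departure over all genes tested was -0.27, so relative to all genes the enzymes stood 0.090 higher. With median-of-ratios scaling the departure was 0.072 for the enzymes and -0.035 for all genes, and with quantile normalization it was 0.016 and -0.12. The sign of the departure itself therefore changed with the scaling. By the median the enzymes stood above all genes in each case, by 0.11 with median-of-ratios scaling and 0.14 with quantile normalization. By the mean, without rescaling, the enzymes stood below all genes, at -0.21 beside -0.15. The departures of *Lss*, *Cyp51* and *Nr1h3* changed sign under both scalings and those of *Ebp* and *Nr1h2* under median-of-ratios scaling, while the other 28 members kept theirs under both.

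**Figure D3:**
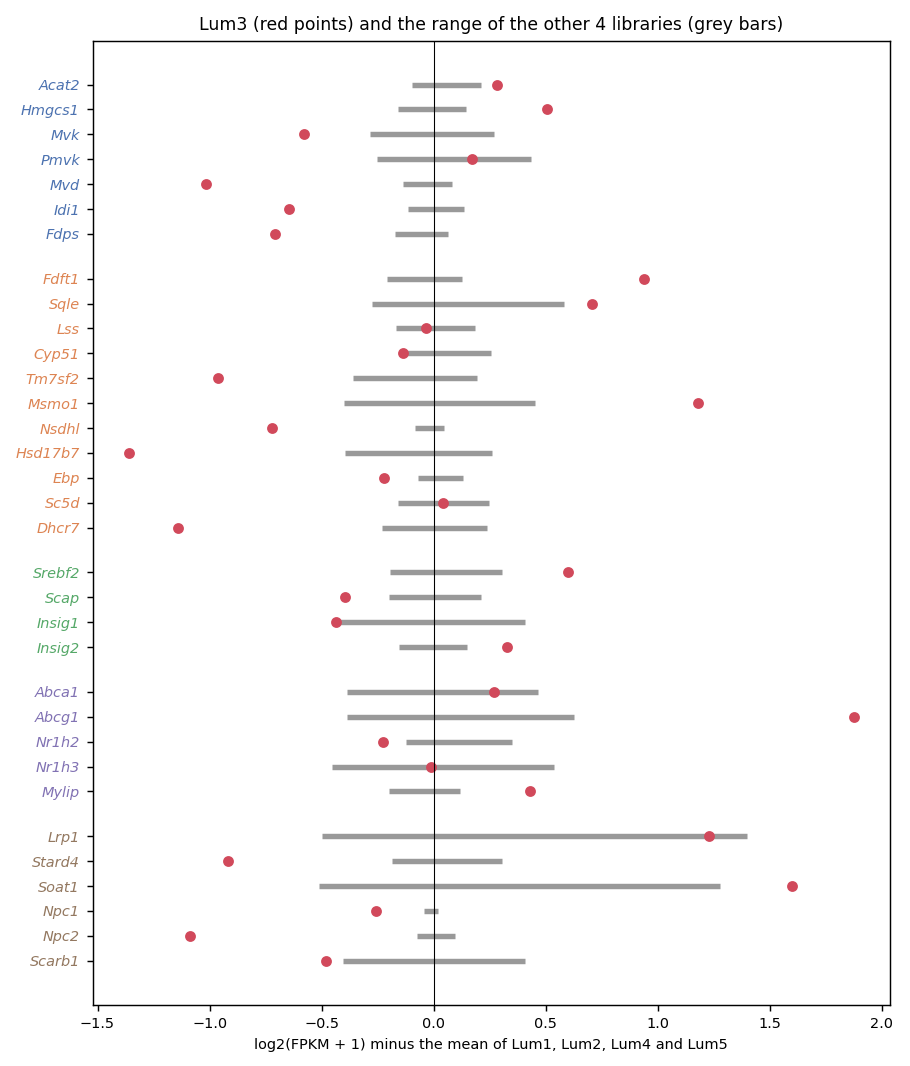
Difference of Lum3 (red points) from the mean of the other 4 libraries on the log2(FPKM + 1) scale for each gene, with the range of those 4 libraries around their mean as grey bars. The points fall on both sides, from -1.36 for *Hsd17b7* to 1.87 for *Abcg1*. Outside the grey range lie 27 of 33, 10 above it and 17 below, beside 18.5% and 51.9% of all genes tested. With median-of-ratios scaling 24 would lie outside, and with quantile normalization 23.

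Departure in Lum3 moved with transcript length. Over all genes with a length, the median departure was -0.38 for transcripts under 1500 bases, -0.35 from 1500 to 3000, -0.24 from 3000 to 5000 and -0.12 from 5000 bases upward. In the same bins the median departure of the members was -0.71 (3 members), -0.23 (13), -0.086 (10) and 0.60 (7), the same order. The members highest in Lum3 had a median length of 3264.5 bases and those lowest in it 2697 bases. The 6 members in between had the longest, 4727 bases. The low proliferation list and the high mature luminal list stood beside Lum3 alone. The fibroblast and immune lists stood beside Lum2 and Lum3, with their sums highest in Lum2. Lum3 was the highest library for 2 of 6 fibroblast genes and 1 of 7 immune genes. The part of these lists and of length in the split of the pathway was not tested.

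For fatty acid synthesis, the other arm of lipogenesis, the list median of Lum3 lay below that of every other library. The median of the 20 genes of fatty acid and triglyceride synthesis was 5.72, 5.52, 4.47, 5.42 and 5.67 (log2(FPKM + 1)) in Lum1 to Lum5. The median over all genes tested was also lowest in Lum3, at 3.11 beside 3.28 to 3.38 elsewhere. Of the 20 genes 14 were lowest in Lum3 and 3 highest, beside 51.9% and 18.5% of all genes. Their median departure was -0.80, beside -0.27 for all genes. In Lum3, 8 of the 20 were at least 2-fold below the mean of the other libraries, beside 15.9% of all genes. Another 3 were at least 2-fold above that mean, beside 7.8% of all genes. *Thrsp*, a lipogenic regulator, was 12.4 FPKM in Lum3 and 326 to 465 FPKM elsewhere. *Scd1*, the stearoyl-CoA desaturase, was 750.3 FPKM in Lum3 and 240 to 566 FPKM elsewhere. The partner factor gene *Srebf1* was 44.9 FPKM in Lum3 and 89.9 to 136 FPKM elsewhere, so that *Srebf1* and *Srebf2* differed in direction there.

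**Figure D4:**
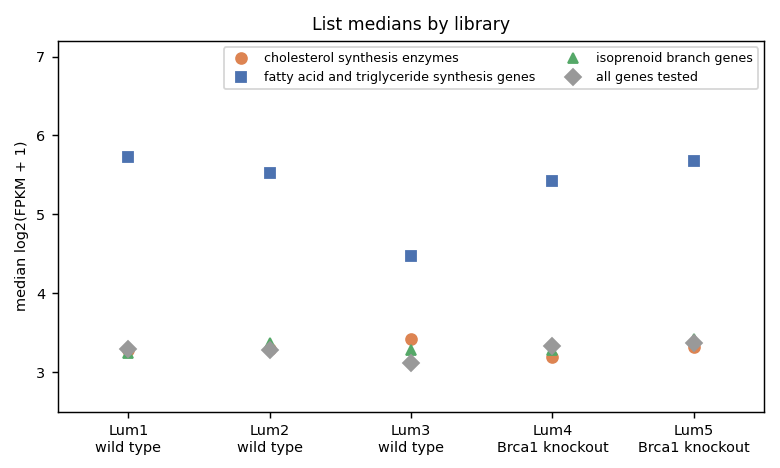
Median log2(FPKM + 1) of the 18 cholesterol synthesis enzymes, 20 fatty acid and triglyceride synthesis genes, 10 isoprenoid branch genes and all genes tested, by library. The fatty acid list is at 4.47 in Lum3 and at 5.42 or more elsewhere, and the cholesterol enzymes stay between 3.19 and 3.42.

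For the neighbouring genes of the pathway, the counts of lowest values in Lum3 are to be read beside the 51.9% of all genes that were lowest there. Of 9 other SREBP processing genes, 7 were lowest in Lum3, and their median was 3.24 there and 3.78 to 3.99 in the other libraries. Of 10 isoprenoid branch genes, which draw on farnesyl diphosphate for dolichol, ubiquinone and protein prenylation, 7 were lowest and 2 highest in Lum3, with list medians between 3.25 and 3.42 in all 5 libraries. *Nus1*, of dolichol synthesis, was 30.6 to 37.8 FPKM, and *Fnta*, a prenyltransferase subunit, was 17.0 FPKM in Lum3 and 23.5 to 27.8 elsewhere. Of 23 other sterol genes 17 were tested, and 9 of the 23 were lowest and 6 highest in Lum3, a smaller share of low values than over all genes. *Lipa*, the lysosomal acid lipase that frees cholesterol from its esters, was 210 FPKM in Lum3 and 238 to 312 elsewhere, and *Gramd1a*, a sterol carrier between membranes, was 30.1 to 39.1 FPKM.

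Between the labels, no sterol gene passed the test. The comparison asks whether luminal cells labelled *Brca1* knockout differ from those labelled wild type. By limma with Benjamini-Hochberg adjustment, 0 of 33 members and 0 of 11481 genes (0%) had an adjusted p of at most 0.05. At an unadjusted p under 0.05 there were 0 members and 372 genes (3.24%). The difference was positive for 17 members and negative for 16, with a median of 0.018 (log2) beside 0.11 for all genes tested.

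In 2 members both libraries labelled knockout lay above all those labelled wild type (17.5% of all genes), and in 5 both lay below (5.77% of all genes). The counts depended on the libraries used. Without Lum3, 13 members lay below (15.6% of all genes), without Lum4 8 (12.5%) and without Lum5 9 (12.4%), while 7 lay above without Lum4 (29.5%) and 4 without Lum5 (29.4%). *Hsd17b7* was 7.78 and 8.18 FPKM in the knockout libraries and 4.84, 6.38 and 1.99 FPKM in those labelled wild type, a difference of 0.83 (SE 0.41). *Stard4* was 3.10 and 3.96 FPKM against 2.53, 2.64 and 1.13 FPKM, a difference of 0.58 (SE 0.32). For both, Lum3 was the lowest library labelled wild type, and without it the differences were 0.45 and 0.33.

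The 5 members below were *Msmo1*, *Lrp1*, *Abcg1*, *Nr1h3* and *Soat1*. *Msmo1* was 4.85 and 5.94 FPKM in the knockout libraries against 7.29 to 16.5 FPKM in those labelled wild type, with a difference of -0.86 (SE 0.35), and of -0.56 without Lum3. *Nr1h3* was 1.67 and 1.14 FPKM against 1.92 to 3.27 FPKM, with a difference of -0.49 (SE 0.28), and of -0.32 without Lum2. *Soat1* had a difference of -1.28 (SE 0.64), *Lrp1* of -1.20 (SE 0.61) and *Abcg1* of -1.14 (SE 0.59), the most negative of the members. Their order was not fixed, and with a pseudocount of 0.1 they were -2.09, -1.89 and -2.27. Without Lum3 that of *Abcg1* was -0.62. The last 3 are the genes that were high in Lum2 and Lum3, and Lum1, also labelled wild type, stood at 0.572 FPKM for *Lrp1* and 0.498 FPKM for *Soat1*, beside 0.558 and 0.496 FPKM in the higher knockout library. With Lum1, Lum4 and Lum5 alone, their differences were -0.07 for *Soat1*, -0.03 for *Lrp1* and -0.30 for *Abcg1*. By limma with Benjamini-Hochberg adjustment, all 7 of these members had an adjusted p of 0.924.

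**Figure D5:**
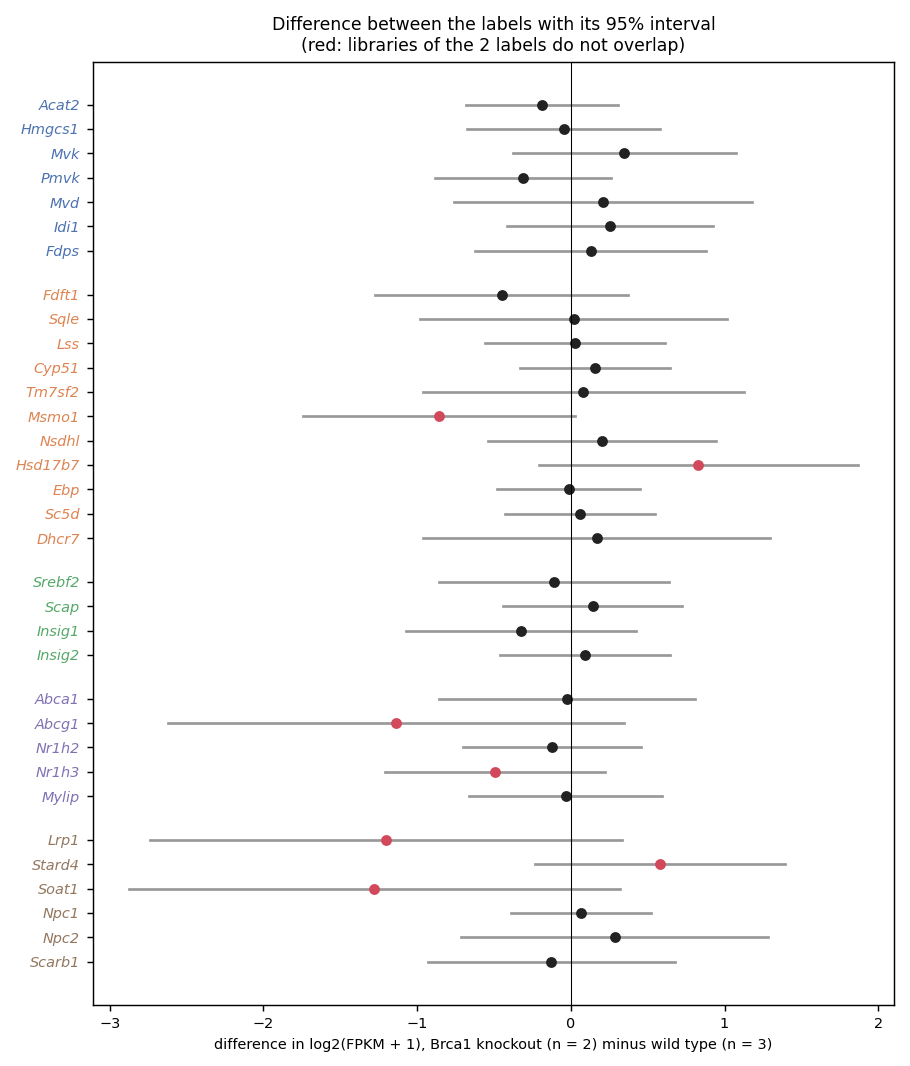
Difference between the labels on the log2(FPKM + 1) scale, *Brca1* knockout (n = 2) minus wild type (n = 3), for each gene from the limma fit over all genes, with 95% confidence intervals as grey lines. Every interval covers 0, and the 7 red points, 2 above 0 and 5 below, mark genes whose libraries do not overlap between the labels.

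The design of 3 against 2 libraries limits what could be called. In simulated data of the same layout with an SD of 0.5, limma called 84% of 200 genes given a log2 change of 2 and 1% of 200 given a change of 1. With an SD of 0.2 it called 99% of those given a change of 1. Every simulated gene had the same SD, whereas the measured genes differ in spread. These shares therefore need not hold for the measured genes. The larger spread of *Soat1* and *Abcg1* (SD of 1.03 and 0.92 over the 5 libraries, log2) was not simulated. The smallest difference among the members was that of *Ebp*, -0.02 with a 95% interval of -0.48 to 0.45. *Npc1*, named after the values were seen because its interval was the narrowest of the members, had a difference of 0.06 with an interval of -0.39 to 0.52.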

How the data were processed

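The authors trimmed reads with Trimmomatic 0.35, aligned them to mm10 with TopHat2 2.0.13 and made FPKM with Cufflinks 2.2.1, per the submitters' processing notes (the paper's methods give another TopHat version). The annotation they counted on is not given in the sources used here. The deposited FPKM are scaled to transcript length and library total, hold no counts, and list 24346 rows. A spreadsheet had turned 27 row names into dates, and these were left out. Samples were grouped by the genotype in the labels.

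FPKM were analysed as log2(FPKM + 1), which understates changes of low genes. The labels were compared with limma 3.58.1 (lmFit and eBayes with its trend option, R 4.3.3). The fit took the 11481 genes whose mean reached 1 FPKM, with Benjamini-Hochberg adjusted p at most 0.05. Within-library differences were tested by exact sign flips. The fit was tested on simulated data. Relative depth came from the steps between low FPKM in genes with 1 transcript over 3000 bases. Only 52.7% to 58.8% of values lay within 0.15 of a whole multiple, where chance gives 30%, so FPKM were not turned into counts. Fragment numbers are approximate and cover counting error only. Gene coordinates and lengths are from GENCODE M21 (GRCm38) and promoters from RefSeq (GRCm38.p6). The alternatives were a pseudocount of 0.1, other filters, median-of-ratios and quantile scaling, eBayes without a trend, the mean in place of the median, and each replicate left out. Added after seeing the data were Lum1, Lum4 and Lum5 alone, and the scalings and left-out libraries for counts of members. Tools were Python 3.11.15, numpy 2.4.6, pandas 2.3.3 and matplotlib 3.10.9.

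The members and gene lists were chosen with earlier results of these data known. Named are all members, *Brca1*, and of other lists the 2 genes of highest mean FPKM, with values for those a result turns on. Differences between the labels are printed for members whose libraries do not overlap and for the largest and smallest.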

Additional observations from a re-analysis of the deposited data

Results flagged for a closer look

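Taking the 5 libraries as 1 group, 17 of 80 values examined (members, *Brca1*, named genes and list medians) had 1 library far from the other 4 by Dixon's criterion, which chance meets in about 1 of 20 groups. For the members this was 6 of 33 (18.2%), 4 of them in Lum3 (12.1%), beside 12.99% of all genes tested and 10.6% in Lum3. Of the 17 values, 15 lay in Lum3.

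Low in Lum3 among the members were *Npc2* at 27.3 FPKM (others 56.2 to 63.2), *Mvd* at 8.48 (16.4 to 19.3), *Nsdhl* at 3.42 (5.89 to 6.52) and *Npc1* at 9.12 (10.8 to 11.3). Flagged in other libraries were *Cyp51*, 9.81 FPKM in Lum5 (7.23 to 7.79), and *Nr1h2*, 47.6 FPKM in Lum1 (31.6 to 34.4). The departure of *Npc1* in Lum3 was -0.26 (log2(FPKM + 1)), near the median of -0.27 over all genes tested. With median-of-ratios scaling it was -0.011.

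Outside the members, *Brca1* was 0.234 FPKM in Lum3 (others 1.20 to 1.34), *Thrsp* 12.4 (326 to 465), the alveolar factor gene *Elf5* 101.8 (244 to 338), the basal gene *Oxtr* 0.478 (6.57 to 12.7) and the mitotic gene *Birc5* 1.18 (17.0 to 26.8). High in Lum3 were *Krt8* at 3653 FPKM (2240 to 2483), *Krt18* at 2869 (1490 to 1740) and *Prlr* at 147.7 (5.61 to 10.3). The list medians flagged in Lum3, as log2(FPKM + 1), were 3.24 for other SREBP processing genes (3.78 to 3.99), 4.47 for fatty acid and triglyceride synthesis (5.42 to 5.72) and 5.48 for the mature luminal list (1.17 to 1.80).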

How the results depend on the processing

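Members called between the labels numbered 0 under all 12 alternatives, which says little of stability in a design of this size. Where 1 library stands for a label (without Lum4, without Lum5, or Lum1, Lum4 and Lum5 alone), it is assumed to vary like the other label. The 7 single differences printed and the 4 within-library differences kept their sign under each alternative run, but a pseudocount of 0.1 moved *Abcg1* to -2.27, *Soat1* to -2.09, *Lrp1* to -1.89 and *Abcg1* minus *Abca1* to -1.96. Genes called were 0, and with a library left out 0 to 18, or 3 with Lum1, Lum4 and Lum5 alone (all small RNA names; without Lum1 2, without Lum4 18, without Lum5 4). The median difference over members, 0.018, was -0.090 with median-of-ratios scaling, -0.068 with quantile normalization, -0.093 as a mean, and -0.092 (without Lum3) to 0.10 (without Lum4) with a library left out. The median enzyme level, 3.30, was 3.16 with a pseudocount of 0.1 and 3.39 as a mean. The Lum3 departure of the enzymes, -0.18, was 0.072 with median-of-ratios scaling and 0.016 with quantile normalization, and cannot be computed without Lum3. Members lowest in Lum3, 17, were 10 with median-of-ratios scaling. Members with both knockout libraries below wild type, 5, were 8 with median-of-ratios scaling (9.43% of all genes), 6 to 13 with a library left out (13 without Lum3, 15.6% of all genes) and 15 with Lum1, Lum4 and Lum5 alone (35.2%). Members with both above, 2, were 3 to 7 and 4 (35.6%). Causes were not tested, beyond fewer libraries making overlap rarer. Unadjusted p under 0.05 was met by 5 members without Lum1 (7.56% of all genes), 1 without Lum3 (*Insig1*; 7.33%), 1 with a pseudocount of 0.1 (*Msmo1*; 3.24%) and 3 with Lum1, Lum4 and Lum5 alone (*Pmvk*, *Insig1*, *Nr1h2*; 5.97%). No paired analysis was possible because the labels share no replicate numbers between genotypes. Depth limits *Abcg1*, *Soat1* and *Lrp1* in Lum1 and Lum4.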
